A study of Oryzias latipes with 4 samples.

Results

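The clock output regulators described here are 8 medaka genes of the nr1d, tef and nfil3 families, out of 20898 genes named in the deposited table. They were found by gene identifier and comprise 2 nr1d1 genes (LOC101174341 and LOC101173939), 2 nr1d2 genes (LOC101163230 and LOC101156434), 3 tef genes (LOC101159928, LOC101164258 and LOC101172818) and 1 nfil3-like gene (LOC101161892). Their messenger RNA was measured in female medaka (Oryzias latipes), a small teleost whose reproduction follows day length, in a tissue block of ventral telencephalon, hypothalamus and pituitary. Fish of the long day group (LD) had been moved from short to long days, and fish of the short day group (SD) had stayed under short days. All fish were first kept under short days, and tissue was collected 16 h after the transfer from 6 fish per condition. Each group has 2 libraries, called LD 1, LD 2, SD 1 and SD 2. The labels give no strain, age, hours of light or clock time of collection, nor how the fish were divided between libraries. The p-values below therefore rest on the spread between libraries, which may be partly technical. The limma fit draws each gene's spread toward that of genes at a similar level. A standard error can thus be smaller or larger than the gene's own libraries would give.

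The vertebrate clock is a transcriptional loop in which CLOCK and BMAL proteins drive their own inhibitors, PER and CRY. The nr1d genes (Rev-erb) encode nuclear receptors that repress BMAL genes and other targets at ROR elements, where ROR proteins activate. Thyrotroph embryonic factor (tef) is a bZIP activator that binds the D-box, and nfil3 (E4BP4) is a bZIP repressor that binds the same element. In zebrafish, D-boxes also carry the response of some clock genes to light. In mammals the nfil3 gene is itself repressed by the nr1d receptors.

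None of the 8 genes passed the threshold over all genes tested, and the nfil3-like gene had the largest difference among them, at a level 2.23 times as high in LD. Of all genes in the fit 0.00587% passed (1 of 17030), by limma on log2(FPKM + 1) with a Benjamini-Hochberg adjusted p of 0.05 as the threshold. FPKM counts fragments per kilobase of feature and is scaled for sequencing depth. The gene that passed encodes somatotropin and was lower in LD. At an unadjusted p under 0.05, 3 of the 8 genes were higher in LD and none lower, against 6.34% of all genes (2.55% higher and 3.79% lower). The 3 were the nfil3-like gene, tef LOC101159928 and nr1d2 LOC101163230. Of these, tef LOC101159928 was above that p when only its highest row was used, as given below. Which of the 8 genes were under that p changed with the library left out. Over all alternatives run, those without 1 library included, the log2 differences of the 3 kept their sign. They ran from 0.86 to 1.26 for the nfil3-like gene, from 0.18 to 0.21 for tef LOC101159928 and from 0.24 to 0.52 for nr1d2 LOC101163230. That of tef LOC101172818, not among the 3, was -1.02 without SD 2. With 2 libraries against 2, an exact permutation test of a single gene cannot give a two-sided p below 0.333.

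LD and SD libraries had no overlap in 4 of the 8 genes (the same 3 and nr1d2 LOC101156434), against 37.2% of all genes. In all 4 the LD libraries were the higher ones, an arrangement found in 16.4% of all genes, while 20.9% had the LD libraries lower. The difference was above 0 for 6 of the 8 genes, against 46.3% of all genes. The 6 include tef LOC101164258, whose difference was only 0.004. That count rests partly on SD 2, which was the lowest of the 4 libraries for 6 of the 8 genes and for 22.1% of all genes. Without SD 2, 4 of the 8 differences were above 0, and without SD 1, LD 1 or LD 2 the counts were 7, 5 and 6. In those fits 46.7% to 47.0% of all genes were above 0. The median log2 difference of the 8 genes was 0.17 with all libraries and 0.02 without SD 2, against medians of -0.01 over all genes in both cases.

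**Figure D1:**
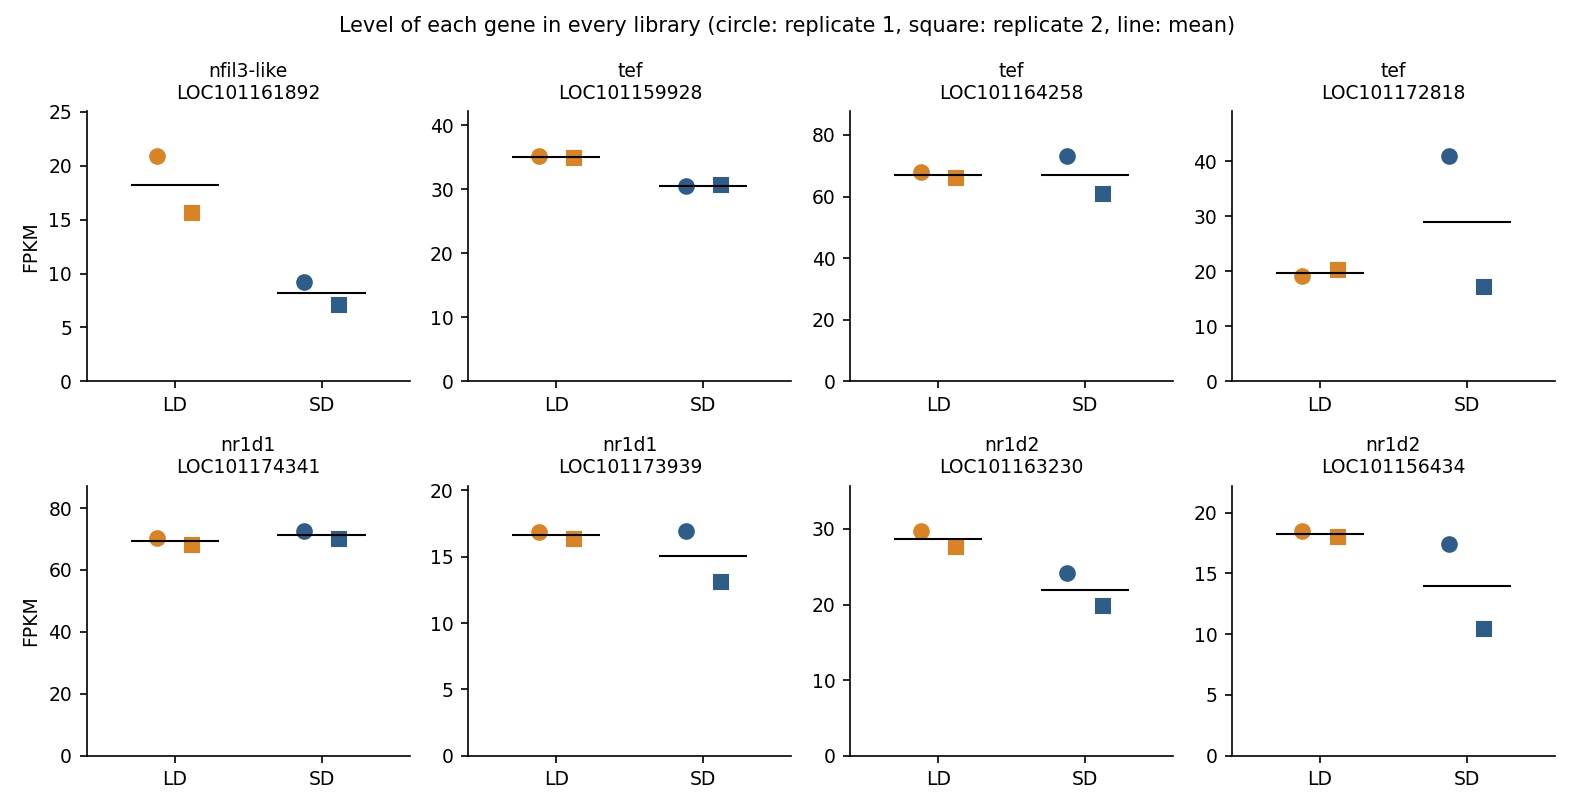
Level of each of the 8 genes in FPKM (vertical axis, starting at 0) in the LD and SD libraries. Circles are replicate 1, squares replicate 2 and lines the group means. The nfil3-like gene stood at 15.6 and above in LD and at 9.23 and below in SD, while tef LOC101172818 was set apart by SD 1 at 40.9 FPKM.

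In each library between 22556 and 22869 rows of the table reached 1 FPKM, and the commonest low value of FPKM times length, read as the step that 1 fragment adds, put SD 2 at 1.47 times the depth of SD 1, with LD 1 and LD 2 at 1.10 and 1.09 times. This depth scale is uncertain, as some values lay below that step (6.82% to 7.11% of those above 0). SD 2 also had the most rows above 0, 39789 against 37506 to 37823. On that approximate scale the 8 genes were covered by between 477 and 6468 fragments per library, so that counting error alone would be at most 4.58% of a value. Neuronal markers fit the labelled tissue, with snap25 at 849 to 883 FPKM. So did the hypothalamic pro-MCH-like gene LOC101161984, at 797 to 989 FPKM. Hypothalamic markers were not all that even between libraries. The gene oxt stood at 270 and 60.8 FPKM in LD and 53.9 and 153 in SD, while hcrt stayed between 6.09 and 9.70. An isotocin gene (LOC101160739) stood at 182 and 308 in LD and 103 and 212 in SD. Photoreceptor and pineal markers, from tissues where clock genes are strongly active, summed to 1.78 and 3.78 FPKM in LD and 1.05 and 2.24 in SD over 5 genes, with rho listed at 0 in LD 1 and SD 1. Pituitary markers summed to 4107 and 5622 FPKM in LD and 7076 and 7472 in SD, with 11 of 14 differences below 0 and no gene at 0. Over all genes tested, 9141 of 17030 differences were below 0. A large part of these sums was prolactin-1, at 1825 and 3536 FPKM in LD and 3900 and 3743 in SD. Summed over 7 genes, the myelin markers reached 1551 FPKM in LD 1, against 748 in LD 2, 975 in SD 1 and 929 in SD 2. The part of these tissue components in the differences below was not tested. In a tissue block, fewer cells of a type and less RNA per cell cannot be told apart.

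The nfil3-like gene (LOC101161892) is described by its likeness to nfil3, a D-box repressor, and its own role was not tested. It stood at 20.8 FPKM in LD 1 and 15.6 in LD 2, against 9.23 in SD 1 and 7.11 in SD 2. Every LD value was above every SD value, and within each group the libraries differed by less than the groups did. The log2 difference was 1.06 with a standard error of 0.18 and a 95% interval of 0.60 to 1.53 (limma unadjusted p = 0.00202, adjusted p = 0.687 over all genes). It ranked 48th of 17030 by p. The difference lay between 0.86 and 1.26 when any 1 library was left out, and the lowest value was that without LD 1. LD 1, the higher of the LD libraries for this gene, was also the library with the most myelin RNA.

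The coding sequence of this gene is a single uninterrupted segment of 1215 bases on the minus strand. Nearly all of its signal came from 1 row of the table, on chromosome 8 at 22332412 to 22335322, which is 2356 bases long and so extends beyond the coding sequence. A further row with the same gene name, from 22323747 to 22340374, was at 0.0806 FPKM or less in every library. These positions are those of the deposited table, and the sources used here do not name its genome build. The nearest named genes that averaged 1 FPKM or more lie 33993 and 38822 bases beyond the ends of that further, wider row. The gene on the lower side, LOC101161408, encodes a Ral exchange factor and stood at 9.70 and 5.08 FPKM in LD and 7.89 and 6.77 in SD. That on the upper side, paralemmin-2 (LOC101162370), stood at 2.47 and 1.55 in LD and 1.74 and 2.48 in SD. Neither neighbour separated the groups.

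Among 8677 genes with a proper symbol, the profile closest to that of the nfil3-like gene belonged to per2, a period gene that light induces in fish. Likeness was measured as the Euclidean distance between centred log2(FPKM + 1) values over the 4 libraries. The distance was 0.28 for per2, which stood at 13.7 and 13.6 FPKM in LD and 6.46 and 5.03 in SD. Next came lonrf1 (distance 0.30) and lonrf3 (0.41), whose proteins carry LON and RING domains. The first stood at 18.1 and 17.5 FPKM in LD and 10.6 and 7.22 in SD, and the second at 6.94 and 7.45 in LD and 2.68 and 2.26 in SD. All 3 had higher values in each LD library than in either SD library, as the choice by likeness to this profile requires, and over 4 libraries such a ranking is a description only.

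The tef genes encode activators of the D-box, and none of the 3 passed over all genes. The gene on chromosome 19 (LOC101164258, 2089918 to 2094144, 5 coding segments) was the most abundant. It stood at 67.8 and 66.0 FPKM in LD and at 73.0 and 61.0 in SD, so the LD values lay between the SD values. Its log2 difference was 0.00 with a 95% interval of -0.26 to 0.26 (limma adjusted p = 0.995). Its row overlaps that of phf5a, a splicing factor gene at 8.59 to 10.9 FPKM, and reads from the shared stretch could be assigned to either.

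The tef gene on chromosome 11 (LOC101159928) had, as a sum over its rows, the tightest replicates of the 8. It stood at 35.1 and 34.8 FPKM in LD and at 30.5 and 30.7 in SD. All LD values were above all SD values, and the libraries of a group differed by far less than the groups. The log2 difference was small, at 0.19 with a standard error of 0.07 (limma unadjusted p = 0.0358, adjusted p = 0.782). When any 1 library was left out it lay between 0.18 and 0.19.

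This level is a sum over separate pieces of the gene, since no row covers it whole. A row of 549 bases from 14833593 to 14841494 holds 2 of its 5 coding segments, next to the first, and stood at 14.7 and 14.9 FPKM in LD and 12.4 and 13.4 in SD. The other, of 1381 bases from 14857317 to 14860254, holds the last 2 segments and stood at 20.4 and 20.0 in LD and 18.1 and 17.3 in SD. Both pieces separated the groups in the same direction. Between the SD libraries they differed in opposite directions, so the close agreement within SD belongs to the sum. With the highest row alone the log2 difference was 0.18 (limma unadjusted p = 0.0562). For the sum, the limma unadjusted p was 0.0543 with a replicate block and 0.0714 without a trend. Because FPKM is already per length, adding the pieces overstates the level of the transcript. By its higher piece alone the gene averaged 18.9 FPKM over the 4 libraries, below nr1d2 LOC101163230 and tef LOC101172818 rather than above them. Another 2 rows of this gene were listed at 0 in every library.

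The tef gene on chromosome 8 (LOC101172818, 19453936 to 19462067, 4 coding segments) was decided by 1 library. It stood at 19.2 and 20.2 FPKM in LD, and at 40.9 in SD 1 but 17.1 in SD 2. The SD libraries enclosed the LD libraries. The log2 difference between SD 1 and SD 2 was 1.21, and 0.2997% of genes within 2 times its level had a larger one. The group difference was -0.41 with a standard error of 0.39 (limma adjusted p = 0.866). It was 0.19 without SD 1 and -1.02 without SD 2, so its direction turned with the library left out.

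The genes on either side of this tef gene are LOC101169364, a zinc finger gene, at 4.89 and 4.41 FPKM in LD and 5.87 and 5.22 in SD, and tob2, an antiproliferative gene, at 26.1 and 29.0 in LD and 29.1 and 27.2 in SD. Neither had an excess of that size in SD 1. The genes with the nearest profiles, chosen by likeness to this one and so high in SD 1, were il15ra (distance 0.10), tmem245 (0.15) and orla-b2m (0.25). The first encodes an interleukin-15 receptor subunit and stood at 5.21 and 5.89 FPKM in LD and 11.3 and 4.62 in SD. The transmembrane protein gene tmem245 stood at 19.2 and 19.0 in LD and 40.6 and 18.7 in SD. The last encodes beta-2-microglobulin, the light chain of class I histocompatibility molecules, and stood at 23.6 and 31.8 in LD and 58.9 and 24.7 in SD.

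**Figure D2:**
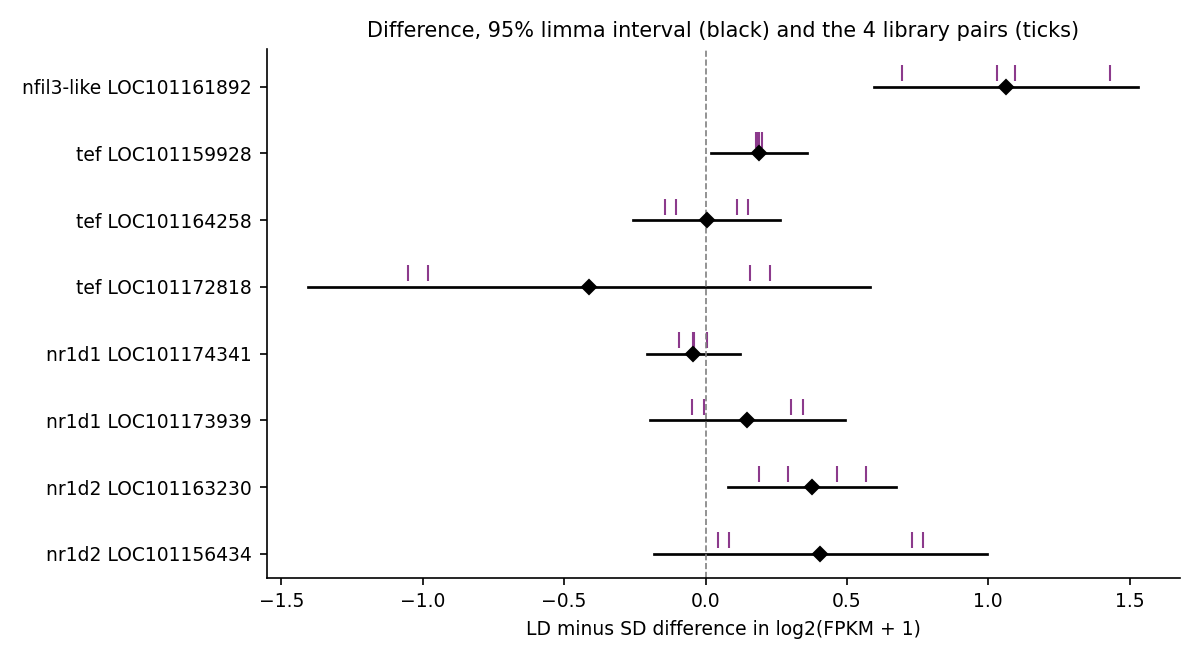
LD minus SD difference in log2(FPKM + 1) for each gene (horizontal axis), with its 95% limma interval in black and the 4 differences between single LD and SD libraries as ticks. The interval of the nfil3-like gene ran from 0.60 to 1.53, and that of tef LOC101172818 from -1.41 to 0.58 with its ticks in 2 clusters.

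The nr1d1 genes encode the Rev-erb alpha type of receptor. LOC101174341 on chromosome 5 (27412526 to 27418719, plus strand) was the most abundant of the 8 genes, above 92.9% of the named genes tested. It stood at 70.4 and 68.1 FPKM in LD and 72.7 and 70.1 in SD. The ranges of the groups overlapped, and all 4 values lay close together. The log2 difference was -0.04 with a 95% interval of -0.21 to 0.12 (limma adjusted p = 0.918), an interval that leaves out differences as large as that of the nfil3-like gene.

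The second nr1d1 gene, LOC101173939 on chromosome 7 (12572670 to 12579337, minus strand), averaged a lower level, with a ratio of 4.44 between the means of the pair. It stood at 16.9 and 16.4 FPKM in LD and 17.0 and 13.1 in SD. SD 1 was the highest library and SD 2 the lowest. The log2 difference was 0.15 with a standard error of 0.13 (limma adjusted p = 0.863), and -0.03 without SD 2. For both nr1d1 genes the row spans 7 of the 8 coding segments of the annotated protein.

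The nr1d2 genes, of the Rev-erb beta type, had higher mean levels in LD by nearly the same ratio, 1.31-fold in each, and neither passed over all genes. LOC101163230 on chromosome 11 (17906142 to 17913384, minus strand) stood at 29.8 and 27.6 FPKM in LD and 24.1 and 19.7 in SD. The groups did not overlap. The log2 difference was 0.38 with a standard error of 0.12 and a 95% interval of 0.08 to 0.68 (limma unadjusted p = 0.0220, adjusted p = 0.782). It was 0.24 without SD 2 and 0.52 without SD 1. Its neighbours were thrb, a thyroid hormone receptor gene, at 16.2 and 20.4 FPKM in LD and 20.5 and 26.8 in SD, and rpl15, a ribosomal protein gene, at 270.4 and 282 in LD and 265 and 269 in SD. The mean of thrb was lower in LD, unlike that of its nr1d2 neighbour. In rpl15 both LD values were above both SD values, as in the nr1d2 gene.

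LOC101156434 on chromosome 16 (29722383 to 29727771, minus strand) stood at 18.5 and 18.0 FPKM in LD and 17.4 and 10.4 in SD. The LD values were above both SD values, but the distance from LD 2 to SD 1 was small and SD 2 stood apart. The log2 difference was 0.41 with a standard error of 0.23 (limma adjusted p = 0.802). It was 0.06 without SD 2 and 0.75 without SD 1. The SD libraries differed from each other by 0.69 on the log2 scale, more than the groups did, and 1.45% of genes within 2 times its level had a larger gap between them.

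The genes with the profiles nearest to this nr1d2 gene were ggact (distance 0.15), prkg2 (0.16) and lum (0.17). All 3 were lowest in SD 2, as a choice by likeness to this profile tends to require. They encode an amine cyclotransferase, a cGMP-dependent kinase and the matrix protein lumican. Their lowest values were 2.34, 0.463 and 2.74 FPKM in SD 2, and their values in the other libraries ran from 4.72 to 5.13, from 1.15 to 1.47 and from 4.39 to 4.61. In each of them the groups overlapped.

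By mean level per length over the 4 libraries, the order was nr1d1 LOC101174341 (70.3 FPKM), tef LOC101164258 (67.0), tef LOC101159928 (32.8 as a sum of 2 pieces), nr1d2 LOC101163230 (25.3), tef LOC101172818 (24.3), nr1d2 LOC101156434 (16.1), nr1d1 LOC101173939 (15.8) and the nfil3-like gene (13.2). The ranges of the first 2 overlapped, as did those of nr1d2 LOC101163230 and tef LOC101172818, of tef LOC101172818 and nr1d2 LOC101156434, and of the last 3 with each other. Further down the order, tef LOC101159928 overlapped with tef LOC101172818, and the nfil3-like gene with nr1d2 LOC101163230 and tef LOC101172818. The nfil3-like gene was the lowest of the 8 in SD, at 9.23 and 7.11 FPKM. In LD 1, at 20.8 FPKM, it was above both less abundant receptor genes and above tef LOC101172818.

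Genes of activator and repressor families among the 8 were then set against each other within each library. The D-box activator gene hlf and the nfil3 gene LOC101175377, both described below, were left out. That nfil3 gene stood at 18.4 and 17.6 FPKM in LD and 16.2 and 16.9 in SD. It was above the nfil3-like gene in both SD libraries and in LD 2, but not in LD 1. The ratios are therefore not those of all D-box activators to all D-box repressors. In the tef sums LOC101159928 counts with both its pieces, which overstates its part. The summed tef level was 122 and 121 FPKM in LD and 144 and 109 in SD, so the LD libraries lay between the SD libraries. Divided by the level of the nfil3-like gene, it gave 5.86 in LD 1 and 7.77 in LD 2, against 15.6 in SD 1 and 15.3 in SD 2. The mean ratio was 6.82 ± 1.35 in LD and 15.5 ± 0.241 in SD (± standard deviation, 2 libraries a group), so that of LD was 0.440 times that of SD. Of the parts of this ratio, the mean tef sum in LD was 0.961 times that in SD, and the mean nfil3-like level 2.23 times.

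Leaving LOC101172818 out of the tef sum gave 4.94 and 6.48 in LD and 11.2 and 12.9 in SD, again with every LD value below every SD value. On the log2(FPKM + 1) scale the difference of the ratio with all 3 tef genes was -1.11, with a pooled standard deviation between replicates of 0.20. That difference lay between -1.30 and -0.91 when any 1 library was left out. With only the highest row of each gene it was -1.14. No test was made of this ratio, since the genes were chosen with earlier results known.

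Against the nr1d repressors the tef sum differed less. The summed nr1d level was 136 and 130.1 FPKM in LD and 131 and 113 in SD, and the ratio of tef to nr1d was 0.901 and 0.931 in LD and 1.10 and 0.959 in SD. Both LD ratios were below both SD ratios. The highest ratio, in SD 1, included the high value of LOC101172818 in that library. Without that gene the ratios were 0.759 and 0.775 in LD and 0.789 and 0.808 in SD. The log2 difference of the full ratio was -0.16, with a pooled standard deviation of 0.10, and -0.07 without SD 1.

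The make-up of the nr1d pool also differed in its means. LOC101174341 supplied 51.9% and 52.3% of the summed nr1d level in LD and 55.4% and 61.8% in SD. LOC101163230 supplied 22.0% and 21.2% in LD and 18.4% and 17.4% in SD. Both shares separated the groups, in opposite directions, as parts of 1 sum must tend to do. LOC101156434 supplied 13.7% and 13.8% in LD and 13.3% and 9.21% in SD, also without overlap. Among the tef genes, LOC101159928 supplied 28.8% in each LD library and 21.1% and 28.2% in SD, without overlap but with LD close to SD 2. LOC101164258 supplied 55.5% and 54.5% in LD and 50.6% and 56.1% in SD, and these overlapped. LOC101172818 supplied 15.7% and 16.7% in LD and 28.3% and 15.7% in SD, so the other tef shares were low in SD 1. The shares of LOC101159928 are overstated, since its level is a sum of pieces.

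**Figure D3:**
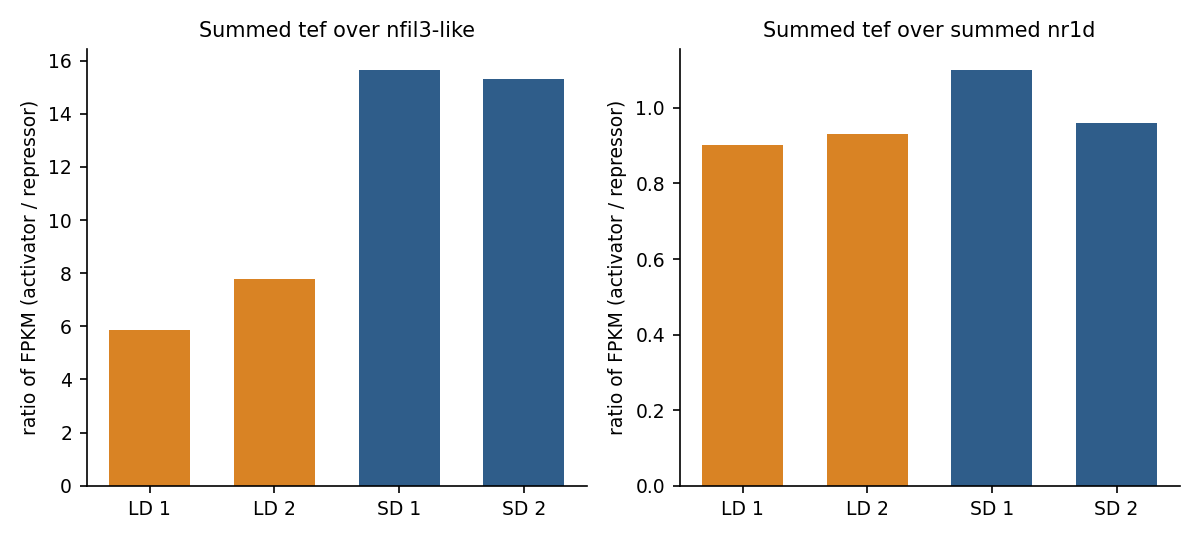
Ratio of the summed FPKM of the 3 tef genes to the FPKM of the nfil3-like gene (left panel) and to the summed FPKM of the 4 nr1d genes (right panel) in each library, with axes from 0. The left ratio was 5.86 and 7.77 in LD and 15.6 and 15.3 in SD, while the right one ran from 0.901 to 1.10 over all libraries.

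The rest of the clock, together with light-induced DNA repair genes, was followed with lists of genes matched by symbol or description, the 8 genes left out. Of 34 matched genes 32 averaged 1 FPKM or more, and none of them passed over all genes (0.00587% of all genes did). At an unadjusted limma p under 0.05, 6 of the 32 were higher in LD and none lower, against 2.55% and 3.79% of all genes. The median log2 difference was 0.15, against -0.01 over all genes. Fewer genes were under that p without SD 2 and without LD 1, where the medians were 0.07 and 0.09. For 15 of the 32 the LD libraries were the higher ones without overlap, and for 3 the lower ones, against 16.4% and 20.9% of all genes.

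The PER and CRY arm, with ciart and bhlhe41 as further repressors, had 11 of 12 tested genes with a difference above 0, against 46.3% of all genes, and a median of 0.23. Without SD 2 these were 9 of 12 and a median of 0.04, and without LD 1 they were 8 of 12 and 0.09. For 5 of the 12 the LD libraries were the higher ones without overlap, and for none the lower ones, against 16.4% and 20.9% of all genes. Unadjusted p was under 0.05 for 3 of the 12, all higher in LD, against 2.55% of all genes. Besides per2, with a mean of 13.6 ± 0.0623 FPKM in LD and 5.75 ± 1.01 in SD (limma adjusted p = 0.280), they were a second per2 gene and a cry1 gene. The second per2 (LOC101161338) stood at 12.3 and 12.4 FPKM in LD and 8.67 and 9.13 in SD, and the cry1 gene LOC101167667 at 46.5 and 45.6 in LD and 40.2 and 32.9 in SD.

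The activating arm holds the clock and npas2 genes, the BMAL genes, which the nr1d receptors repress, and the ROR genes, whose products compete with those receptors. Of 11 tested genes 6 had differences above 0, near the share of 46.3% of all genes. The median was 0.02, and -0.04 without LD 2. At an unadjusted limma p under 0.05, 2 of the 11 were higher in LD and none lower, against 2.55% and 3.79% of all genes. For 4 the LD libraries were the higher ones without overlap, and for 3 the lower ones, against 16.4% and 20.9% of all genes. The smallest p belonged to a gene described as BMAL2 (LOC101175041), at 15.5 and 17.1 FPKM in LD and 8.04 and 11.2 in SD (limma log2 difference 0.72, unadjusted p = 0.00663, adjusted p = 0.782). Another gene with that description, LOC101174183, overlapped between groups, at 19.0 and 19.7 FPKM in LD and 19.0 and 23.3 in SD. Its log2 difference was -0.12. The abundant BMAL1 gene, LOC101159313, chosen with its values in view, had 60.4 and 63.6 FPKM in LD and 57.6 and 61.4 in SD. Differences of the ROR genes lay on either side of 0. LOC101170052, described as ROR-beta-like, stood at 34.5 and 32.5 FPKM in LD and 29.1 and 29.6 in SD, and rorb at 1.96 and 1.82 in LD and 2.98 and 2.51 in SD.

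Other genes for D-box binding proteins were few. The activator gene hlf, a relative of tef, stood at 78.2 and 59.0 FPKM in LD and 51.4 and 54.2 in SD (limma adjusted p = 0.783). A gene described as nfil3 itself (LOC101175377) stood at 18.4 and 17.6 in LD and 16.2 and 16.9 in SD. In both genes the LD libraries were the higher ones without overlap, and the log2 difference of this nfil3 gene, 0.12 with a standard error of 0.08, was far smaller than the 1.06 of the nfil3-like gene. Whether the 2 differences differ was not tested. A further nfil3 entry was at 0.0199 FPKM or less in every library.

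Among the same 32 genes were DNA repair genes that light induces through D-boxes in zebrafish. Of 5 tested, 4 had differences above 0, against 46.3% of all genes, with a median of 0.25 (0.12 without SD 2). Only neil1 had an unadjusted p under 0.05, against 6.34% of all genes. This glycosylase gene stood at 10.6 and 9.66 FPKM in LD and 8.60 and 8.13 in SD. The damage sensor gene ddb2 was at 4.76 and 4.83 in LD and 4.13 and 3.22 in SD, and a photolyase gene (LOC100049426) at 6.87 and 7.63 in LD and 6.60 and 4.66 in SD. In these 3, named for the smallest p of the 5, the LD libraries were the higher ones without overlap. No gene of the list had them lower, and the shares of all genes were 16.4% and 20.9%. The groups overlapped in the cryptochrome DASH gene LOC101168329 and in xpc, with log2 differences of -0.09 and 0.00. None of the 5 passed over all genes.

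The casein kinase genes whose products phosphorylate PER proteins had small differences, on either side of 0. The gene csnk1d stood at 37.8 and 39.5 FPKM in LD and 36.4 and 35.6 in SD, with the LD libraries higher without overlap and a log2 difference of 0.10. The values of csnk1e were 35.3 and 37.9 in LD and 40.8 and 37.5 in SD, which overlapped, with a log2 difference of -0.09. Neither passed over all genes.

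**Figure D4:**
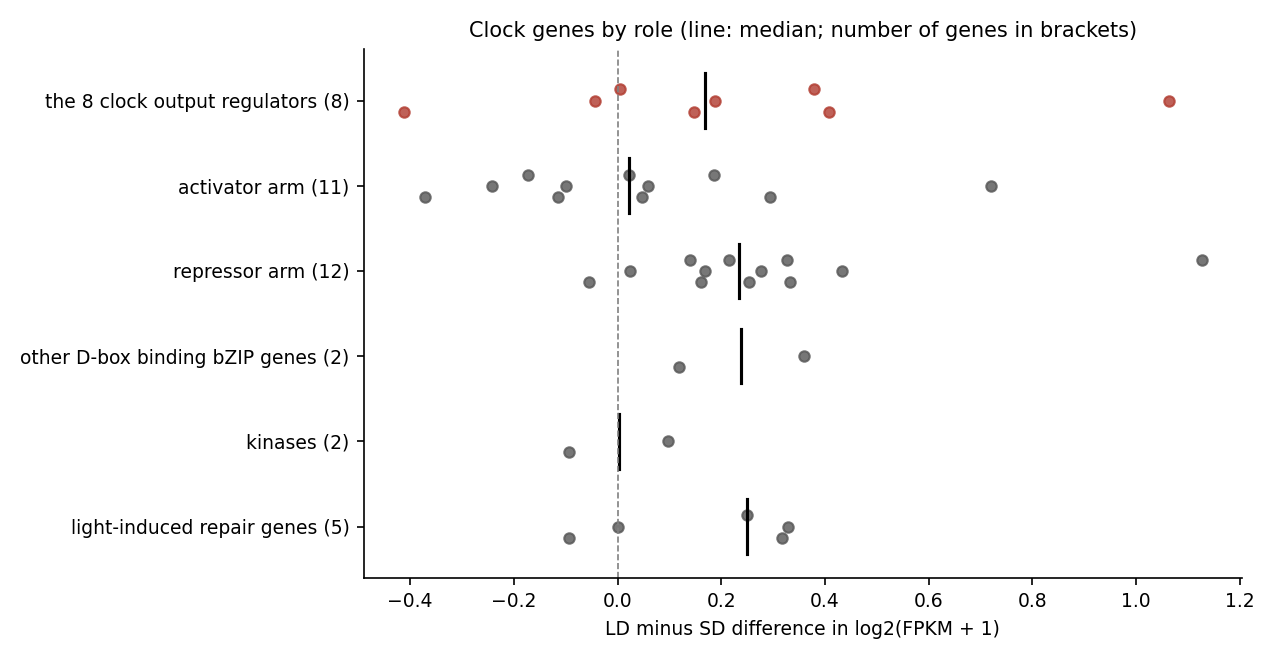
LD minus SD differences in log2(FPKM + 1) (horizontal axis) of the 8 clock output regulators and of 5 lists of other genes. The lists hold other clock genes and light-induced repair genes, with 1 point a gene and the median of each row as a line. The nfil3-like gene at 1.06 and per2 at 1.13 were the highest points of their rows, and the kinases stayed near 0.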

How the data were processed

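Expression was measured in 4 libraries, 2 per group, made with a TruSeq stranded mRNA kit as the labels' protocols state. The submitters' processing notes name HISAT2 2.0.5 and StringTie 1.3.3b without their roles. The authors deposited 1 table of FPKM, with 1 column per library per the file headers, for 93896 rows with length, locus and best BLAST hit. FPKM is already scaled by length and depth, so no count test was used.

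Rows with the same gene name were summed (52142 rows, 20898 genes, all found in the RefSeq table of assembly ASM223467v1). For the 8 genes that joined 13 rows. Genes and unnamed rows with a mean of at least 1 FPKM (17030) were fitted together with limma 3.58.1 in R 4.3.3 on log2(FPKM + 1), with group as the only term and a trend of variance on mean. Empirical Bayes moderation drew the variance of each gene toward that trend. All p-values are two-sided, and Benjamini-Hochberg adjustment ran over all of them. The pseudocount understates the change of low genes. The fit was tested on simulated data drawn with the variances of the fit itself. That test cannot show how well the fit suits the real values. Python 3.11.15, pandas 2.3.3, scipy 1.17.1 and matplotlib 3.10.9 did the rest.

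The 8 genes and the lists were chosen with earlier results of these data known. All 8 are named, with the 3 smallest p of each list and, for genes whose profile had an SD of at least 0.3, the 3 nearest profiles. List matching by description caught some receptors among hypothalamic markers, which were disregarded. An entry of the clock lists is not reported here. Alternatives covered pseudocount, filters, scaling, row choice, trend, robust variance, a replicate block and each library left out.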

Additional observations from a re-analysis of the deposited data

How the results depend on the processing

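None of the 8 genes passed over all genes in any of 14 alternatives, and the lowest adjusted p was 0.162, for tef LOC101172818 without SD 2. Of 112 recomputed differences 107 kept their sign. Those that turned were LOC101173939 without SD 2 (-0.0271, against 0.323 without SD 1), LOC101172818 without SD 1 (0.19, against -1.02 without SD 2), and LOC101164258 without SD 2 (-0.12, against 0.13 without SD 1), without LD 1 (-0.015) and with quantile normalization (-0.00159). Median scaling and quantile normalization moved the median of all genes by 0.02 on the log2 scale. The nfil3-like gene ranged from 0.86 to 1.26, with limma adjusted p between 0.395 and 0.880. Both ratios of activators to repressors kept their sign in the 9 alternatives run for them. With 2 libraries a group, leaving out 1 cannot move them by more than the spread between replicates. That of tef to nr1d was -0.07 without SD 1 and -0.26 without SD 2. The number of genes called over the whole table was 1. It was 0 without a filter, without a trend and with the replicate block, 2 with rows of overlapping hits only, and between 0 and 4 when 1 library was left out. Fits on 3 libraries assume that a lone library varies like the other group. Over all genes tested, replicate numbers gave no sign of pairing (correlation of deviations 0.04). Among the 8 genes, replicate 1 was above replicate 2 in 7 in LD and 7 in SD, against 48.7% and 49.4% of all genes. With the replicate number as a block no gene of the 8 passed, and the nfil3-like gene had an adjusted p of 0.395.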
